A study of Mus musculus with 15 samples.

Results

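The troponin genes were described across 15 left ventricle libraries of C57BL/6 mice. The 8 members were the rows of the count table whose symbol is Tnnt1, Tnnt2, Tnnt3, Tnni1, Tnni2, Tnni3, Tnnc1 or Tnnc2, out of 47069 genes in all. Each symbol occurred in 1 row. In the rHCI group (5 libraries) mice had a myocardial infarction and received an intramyocardial injection of the hydrogel rHCI on day 7. In the PBS group (5 libraries) mice had the same infarction and an injection of PBS on day 7. Both were harvested 2 days after the injection. In the Sham group (5 libraries) mice had a sham operation and no treatment, and were taken at 10 weeks of age to match the others. Since Sham mice had no injection per the labels, a difference from Sham can go with the infarct or with the injection, and these cannot be told apart. Hearts were perfused with PBS, and powdered ventricle was used, so each library mixes all cell types of the wall. The labels do not say how much of it was infarct.

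Troponin is the calcium switch of striated muscle. Troponin C binds calcium, troponin I holds the thin filament in its blocked state, and troponin T ties both to tropomyosin. Each subunit has isoforms from separate genes. Tnnt2 and Tnni3 encode the cardiac T and I subunits, and Tnnc1 encodes a C subunit shared by heart and slow skeletal muscle. Tnnt1 and Tnni1 encode the slow skeletal T and I subunits, and Tnni1 is the main troponin I of the fetal rodent heart. Tnnt3, Tnni2 and Tnnc2 encode the fast skeletal subunits. Cardiac troponin I and T are released from injured heart muscle and serve as blood markers of infarction.

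The 8 genes lie in 3 close pairs and 2 single positions of the mouse genome (GRCm38, GENCODE M21), and all are annotated as protein coding. On chromosome 1, Tnni1 (ENSMUSG00000026418, chr1:135779434-135810989) lies 25364 bases before Tnnt2 (ENSMUSG00000026414, chr1:135836354-135852260), both on the plus strand. On chromosome 7, Tnni3 (ENSMUSG00000035458, chr7:4518305-4524229) ends 1922 bases before the start of Tnnt1 (ENSMUSG00000064179, chr7:4504570-4516382), both on the minus strand. Elsewhere on chromosome 7, Tnni2 (ENSMUSG00000031097, chr7:142441808-142444410) precedes Tnnt3 (ENSMUSG00000061723, chr7:142498836-142516009) on the plus strand, with the leukocyte gene Lsp1 between them. Tnnc1 (ENSMUSG00000091898, chr14:31208312-31211729, plus strand) and Tnnc2 (ENSMUSG00000017300, chr2:164777161-164779967, minus strand) have no other member on their chromosomes.

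The promoter windows of the 4 members that fell in both infarcted groups are shown, since these genes moved together in the counts. Each runs from 250 bases before to 50 bases after a RefSeq start (GRCm38.p6) and is printed 5′ to 3′ on the gene's strand. Capitals mark exact matches on either strand to the M-CAT motif CATTCC, the TATA box TATAAA, the GATA motif AGATAA and the E-box CAGCTG.
Tnnt2 (chr1:135836084-135836383, + strand): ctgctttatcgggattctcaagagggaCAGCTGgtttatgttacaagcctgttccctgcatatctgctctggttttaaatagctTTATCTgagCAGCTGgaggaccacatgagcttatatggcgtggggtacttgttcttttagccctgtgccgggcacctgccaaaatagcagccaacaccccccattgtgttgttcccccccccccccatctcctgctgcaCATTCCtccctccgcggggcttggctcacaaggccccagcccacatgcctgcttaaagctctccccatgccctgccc
Tnni3 (chr7:4522479-4522778, - strand): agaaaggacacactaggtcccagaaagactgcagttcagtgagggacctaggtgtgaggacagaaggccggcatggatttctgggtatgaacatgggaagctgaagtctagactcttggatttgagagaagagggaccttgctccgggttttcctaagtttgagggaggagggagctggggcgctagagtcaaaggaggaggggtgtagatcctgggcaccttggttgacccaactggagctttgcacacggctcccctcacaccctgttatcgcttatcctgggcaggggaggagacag
Tnnc1 (chr14:31208062-31208361, + strand): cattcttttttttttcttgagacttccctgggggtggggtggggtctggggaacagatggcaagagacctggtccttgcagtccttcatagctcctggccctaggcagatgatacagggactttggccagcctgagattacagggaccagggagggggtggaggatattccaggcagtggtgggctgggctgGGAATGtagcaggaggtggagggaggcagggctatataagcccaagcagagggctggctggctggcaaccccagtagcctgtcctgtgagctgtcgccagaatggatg
Tnnt1 (chr7:4515926-4516225, - strand): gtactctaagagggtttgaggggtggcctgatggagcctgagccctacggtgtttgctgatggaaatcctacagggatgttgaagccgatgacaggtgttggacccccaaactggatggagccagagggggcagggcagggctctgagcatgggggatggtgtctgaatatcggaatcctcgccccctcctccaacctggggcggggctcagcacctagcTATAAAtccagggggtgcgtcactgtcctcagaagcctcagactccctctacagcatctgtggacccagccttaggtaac

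The Tnnt2 window shown holds an M-CAT match at -27, a GATA match on the other strand at -166 and 2 E-box matches at -223 and -157, counted from the start. The Tnnc1 window holds an M-CAT match on the other strand at -58. The Tnnt1 window holds a TATA box match at -30. The Tnni3 window holds none of the 4 motifs, nor does a second RefSeq window of Tnnt2 (chr1:135836739-135837038). Among all 32851 RefSeq windows of this length, 14.7% hold CATTCC, 13.6% TATAAA, 11.2% AGATAA and 16.3% CAGCTG, so each match is common. The matches are a description of letters and not of bound factors. Of the 8 members, 6 had a window in the RefSeq table.

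The libraries held 32978702 to 103356830 counts. Each level is given in CPM: the gene's counts over its library's total, after TMM scaling of the 15 libraries to each other. By the run numbers in the descriptions, 12 libraries share 1 sequencing run, PBS 6 is alone in its run, and rHCI 1 and Sham 19 share another. PBS 6 stands apart in skeletal muscle genes. rHCI 1 was the highest library for 4 of 14 atrial and conduction markers. Values without PBS 6 are given where a result rests on it. The 12 genes of the cardiomyocyte list, which holds no troponin, summed to 25927 to 38599 CPM in rHCI, 26257 to 34778 CPM in PBS and 44726 to 51153 CPM in Sham. The 10 fibroblast markers summed to 7941 to 13664 CPM in rHCI, 9018 to 13206 CPM in PBS and 901 to 1098 CPM in Sham. In these bulk samples fewer heart muscle cells and less RNA per cell cannot be told apart.

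The cardiac isoforms and Tnnt1 were lower in both infarcted groups than in Sham, and Tnnt3 was higher. In PBS against Sham, 6 of the 7 members tested passed edgeR's quasi-likelihood test at an adjusted p of 0.05, with 4 lower (Tnnt2, Tnni3, Tnnc1, Tnnt1) and 2 higher (Tnni1, Tnnt3). Over all 16207 genes tested, 71.4% were called, 36.5% higher and 34.9% lower, so being called is not particular to troponins. The CPM of the 2 groups did not overlap for 5 of the 7 members, against 58.7% of all genes tested. In rHCI against Sham, 5 of 7 were called, the same 4 lower and Tnnt3 higher, against 63.9% of 16076 genes (34.1% higher, 29.7% lower). The groups did not overlap for 4 of the 7, against 49.4% of all genes. In rHCI against PBS, 0 of 7 were called with edgeR, and 0% of 16383 genes, and groups without overlap were 0 of the 7 members and 0.531% of all genes. With no adjustment 579 genes of that comparison had a p under 0.05, none of the 7 members among them, and DESeq2 called 6 genes, again with no troponin. The eighth member, Tnnc2, had too few counts to pass the filter in any comparison. Within the shared run alone, Tnnt2, Tnni3, Tnnc1, Tnnt1 and Tnnt3 kept their calls, at -0.71, -0.94, -0.39, -0.72 and 1.49 on the log2 scale in PBS against Sham and at -0.53, -0.68, -0.30, -0.58 and 1.46 in rHCI against Sham. Leaving out rHCI 1 ended no member's call.

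**Figure D1:**
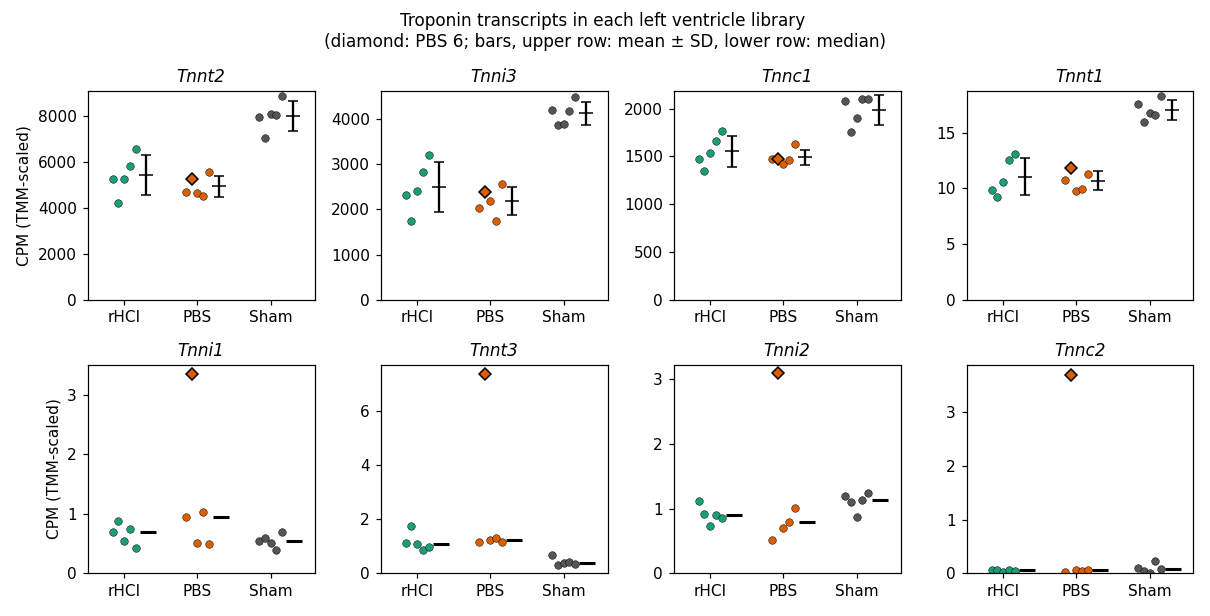
CPM of each troponin gene (y axes from 0) in each library of the rHCI, PBS and Sham groups, 5 libraries each, with the mean ± SD beside the points in the upper row and the median in the lower row. The 4 genes of the upper row are lower in both infarcted groups than in Sham, and the PBS 6 library (diamond) is far above all others for the 4 genes of the lower row, reaching 3.36, 7.36, 3.09 and 3.70 CPM.

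Tnnt2, the cardiac troponin T gene, had 5249, 4220, 5250.4, 5850 and 6591 CPM in rHCI 1, 3, 7, 11 and 13. It had 4682, 5259, 4671, 4533 and 5576 CPM in PBS 2, 6, 9, 12 and 14, and 7967, 7058, 8092, 8041 and 8868 CPM in Sham 16 to 20. No infarcted library reached the lowest Sham library, while the rHCI and PBS libraries overlapped throughout. Means were 5432 ± 874 CPM in rHCI, 4944 ± 450 CPM in PBS and 8005 ± 642 CPM in Sham (SD, n = 5 each). Tnnt2 fell by 0.70 on the log2 scale in PBS against Sham (SE 0.08, edgeR adjusted p = 7.37e-06) and by 0.55 in rHCI against Sham (SE 0.12, edgeR adjusted p = 0.00147).

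Tnni3, the cardiac troponin I gene, had 2313, 1742, 2400.3, 2819 and 3204.5 CPM in rHCI 1, 3, 7, 11 and 13. It had 2025, 2381, 2185, 1745 and 2568 CPM in PBS 2, 6, 9, 12 and 14, and 4188, 3859, 3897, 4183 and 4479 CPM in Sham 16 to 20. The groups were again separate from Sham, and the spread among rHCI libraries (CV 22.1%) was wider than in PBS (14.6%) or Sham (6.13%). Of the 4 members that fell, Tnni3 had the largest drop in both comparisons. It fell by 0.92 on the log2 scale in PBS against Sham (SE 0.10, edgeR adjusted p = 1.97e-06) and by 0.71 in rHCI against Sham (SE 0.14, edgeR adjusted p = 0.000637).

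Tnnc1, the troponin C gene of heart and slow muscle, had 1476, 1343, 1532, 1657 and 1765 CPM in rHCI 1, 3, 7, 11 and 13. It had 1470.1, 1470.6, 1424, 1460.4 and 1632 CPM in PBS 2, 6, 9, 12 and 14, and 2077, 1752, 1904, 2106 and 2104 CPM in Sham 16 to 20. The highest rHCI library, rHCI 13, was above the lowest Sham library, so these groups overlapped, while PBS and Sham did not. Tnnc1 had the smallest drop of the 4, by 0.42 on the log2 scale in PBS against Sham (SE 0.07, edgeR adjusted p = 9.39e-05) and by 0.34 in rHCI against Sham (SE 0.09, edgeR adjusted p = 0.00404). With scaling by library totals alone, the median log2 fold change of all genes was 0.27 in PBS against Sham and 0.22 in rHCI against Sham, against -0.01 and 0.00 with TMM. On that scale the calls split 8938 higher and 2610 lower in PBS against Sham and 8011 and 2128 in rHCI against Sham, compared with 5921 and 5653, and 5487 and 4781, with TMM. Tnnc1 was then at -0.14 in PBS against Sham (edgeR adjusted p = 0.0362) and at -0.13 in rHCI against Sham, where the call was lost (edgeR adjusted p = 0.109), while the other 3 members kept their calls.

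Tnnt1, the slow skeletal troponin T gene, was present at a small fraction of the Tnnt2 level and moved with the cardiac genes. It had 9.88, 9.23, 10.5, 12.5 and 13.1 CPM in rHCI 1, 3, 7, 11 and 13. It had 10.8, 11.8, 9.73, 9.93 and 11.3 CPM in PBS 2, 6, 9, 12 and 14, and 17.6, 15.99, 16.8, 16.6 and 18.3 CPM in Sham 16 to 20. Every infarcted library was below every Sham library. Tnnt1 fell by 0.67 on the log2 scale in PBS against Sham (SE 0.06, edgeR adjusted p = 8.13e-07) and by 0.61 in rHCI against Sham (SE 0.09, edgeR adjusted p = 0.00011).

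The counts of the neighbours Tnnt1 and Tnni3 were compared as a ratio. Per 1000 Tnni3 counts there were 4.27, 5.29, 4.39, 4.45 and 4.09 Tnnt1 counts in rHCI 1, 3, 7, 11 and 13. There were 5.32, 4.97, 4.45, 5.69 and 4.39 in PBS 2, 6, 9, 12 and 14, and 4.20, 4.14, 4.30, 3.96 and 4.08 in Sham 16 to 20. The ratio ran from 3.96 to 5.69 over all 15 libraries, and PBS 6, at 4.97, lay within the PBS range. Every PBS library was above every Sham library, while rHCI and Sham overlapped. Ppp1r12c, the gene on the far side of Tnnt1, fell by 0.17 on the log2 scale in both comparisons (edgeR adjusted p = 0.0207 in PBS against Sham and 0.0460 in rHCI against Sham). Whether reads running past the end of Tnni3 enter the Tnnt1 count was not tested. This pair was chosen after its values were seen, and the ratio is a description.

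**Figure D2:**
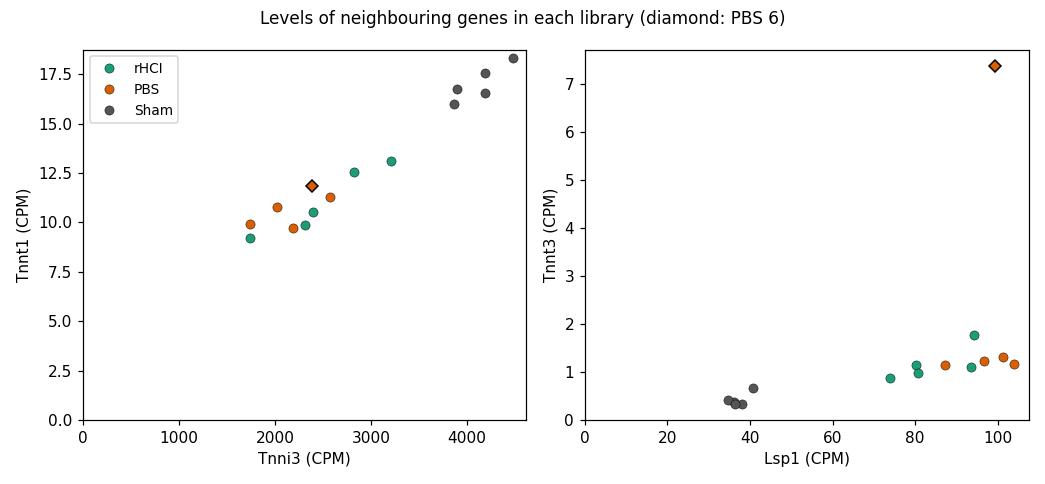
Left, Tnnt1 against Tnni3 CPM, and right, Tnnt3 against Lsp1 CPM, each point 1 library coloured by group (rHCI, PBS, Sham, 5 libraries each; linear axes from 0). Tnnt1 follows Tnni3 over all 15 libraries at 3.96 to 5.69 counts per 1000. It goes as closely with Tnnt2, which lies on another chromosome and is not drawn. Tnnt3 follows Lsp1 except in PBS 6 (diamond), which has 7.36 CPM of Tnnt3.

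Tnni1, the slow skeletal troponin I gene of the fetal heart, stayed at about 1 CPM or less outside PBS 6. It had 0.704, 0.884, 0.549, 0.754 and 0.424 CPM in rHCI 1, 3, 7, 11 and 13. It had 0.949, 3.36, 0.510, 1.04 and 0.4998 CPM in PBS 2, 6, 9, 12 and 14, and 0.542, 0.592, 0.514, 0.392 and 0.689 CPM in Sham 16 to 20. The groups overlapped, and the PBS mean of 1.27 ± 1.19 CPM was set by PBS 6, with 364 counts, against 29 to 89 in the other PBS libraries. Tnni1 was higher by 1.26 on the log2 scale in PBS against Sham (SE 0.48, edgeR adjusted p = 0.0295), and without PBS 6 by 0.44 (SE 0.27, adjusted p = 0.157), where it was no longer called. The call was also lost without Sham 16, 18 or 19 (edgeR adjusted p = 0.0548, 0.0558 and 0.0642). In rHCI against Sham the difference was 0.28 (SE 0.22, edgeR adjusted p = 0.283).

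Tnnt3, the fast skeletal troponin T gene, was higher in every infarcted library than in any Sham library. It had 1.13, 1.77, 1.098, 0.880 and 0.977 CPM in rHCI 1, 3, 7, 11 and 13. It had 1.17, 7.36, 1.23, 1.31 and 1.15 CPM in PBS 2, 6, 9, 12 and 14, and 0.663, 0.327, 0.381, 0.412 and 0.339 CPM in Sham 16 to 20. Tnnt3 rose by 2.55 on the log2 scale in PBS against Sham (SE 0.58, edgeR adjusted p = 0.00137) and by 1.46 in rHCI against Sham (SE 0.25, edgeR adjusted p = 0.000286). Without PBS 6 the rise in PBS was 1.501 (SE 0.21, adjusted p = 4.61e-05).

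Lsp1, a leukocyte gene that lies 3968 bases before Tnnt3 on the same strand, rose beside it. Its levels were 73.9 to 94.1 CPM in rHCI, 87.3 to 104 CPM in PBS and 34.7 to 40.7 CPM in Sham. Lsp1 rose by 1.39 on the log2 scale in PBS against Sham (SE 0.06, edgeR adjusted p = 7.45e-10) and by 1.19 in rHCI against Sham (SE 0.08, edgeR adjusted p = 9.74e-08). Per 1000 Lsp1 counts there were 14.1, 18.8, 11.8, 11.9 and 12.1 Tnnt3 counts in rHCI 1, 3, 7, 11 and 13. There were 11.2, 74.0, 12.7, 12.9 and 13.2 in PBS 2, 6, 9, 12 and 14, and 16.3, 8.56, 10.5, 11.9 and 9.29 in Sham 16 to 20. Outside PBS 6 the ratios of the 3 groups overlapped. Prr33, which overlaps Tnnt3 on the other strand without shared exon bases, was lower by 0.83 in PBS against Sham (edgeR adjusted p = 0.000277). Mrpl23, the next gene past Tnnt3 on the same strand, fell by 0.65 in PBS and 0.46 in rHCI against Sham (edgeR adjusted p = 1.35e-06 and 0.00047). Whether Tnnt3 counts come from transcripts of the Lsp1 locus or of leukocytes was not tested. This pair too was chosen after its values were seen.

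Tnni2, the fast skeletal troponin I gene, had 1.12, 0.921, 0.732, 0.896 and 0.848 CPM in rHCI 1, 3, 7, 11 and 13. It had 0.515, 3.09, 0.703, 0.793 and 1.02 CPM in PBS 2, 6, 9, 12 and 14, and 1.19, 1.102, 0.875, 1.14 and 1.24 CPM in Sham 16 to 20. All groups overlapped. The direction in PBS against Sham turned on 1 library, with 0.20 on the log2 scale in all libraries (SE 0.40, edgeR adjusted p = 0.660) and -0.53 without PBS 6 (SE 0.19, adjusted p = 0.0254). In rHCI against Sham it was -0.30 (SE 0.15, edgeR adjusted p = 0.105), and without Sham 18 it was called at -0.37 (edgeR adjusted p = 0.0498). Tnni2 did not move with its neighbours. Syt8, 1411 bases before it on the same strand, rose by 4.78 in PBS and 4.36 in rHCI against Sham (edgeR adjusted p = 1.6e-06 and 1.74e-05). Syt8 was low, with means of 0.431 CPM in rHCI, 0.569 CPM in PBS and 0.0203 CPM in Sham. Lsp1, on the other side of Tnni2, rose as well.

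Tnnc2, the fast skeletal troponin C gene, had 3, 3, 2, 4 and 2 counts in rHCI 1, 3, 7, 11 and 13. It had 1, 401, 4, 4 and 4 counts in PBS 2, 6, 9, 12 and 14, and 8, 2, 0, 12 and 8 counts in Sham 16 to 20. Outside PBS 6 no library exceeded 12 counts. With no filter on low counts it was called higher in PBS against Sham (log2 fold change 3.15, SE 1.08, edgeR adjusted p = 0.0238), with 401 of the 414 PBS counts in PBS 6. Tnnc2 shares 592 exon bases with Ube2c, a cell cycle gene on the other strand, and 47.9% of its 50-base stretches occur in Ube2c. Ube2c rose by 2.92 on the log2 scale in PBS against Sham and by 2.67 in rHCI against Sham (edgeR adjusted p = 2.05e-07 and 9.25e-06), while Tnnc2 summed to 14 counts in rHCI and 30 in Sham. Whether the 2 genes share reads was not tested. Of the other overlapping pairs, only Tnni3 and Dnaaf3 shared exon bases, 86 in all. Dnaaf3 was at 5.73 CPM in rHCI, 5.39 CPM in PBS and 8.38 CPM in Sham. Tnnc1 lies inside the span of Nisch, a gene on the other strand, without shared exon bases. Nisch was at 235 CPM in rHCI, 237 CPM in PBS and 219 CPM in Sham. Whether Nisch reads enter the Tnnc1 count was not tested.

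**Figure D3:**
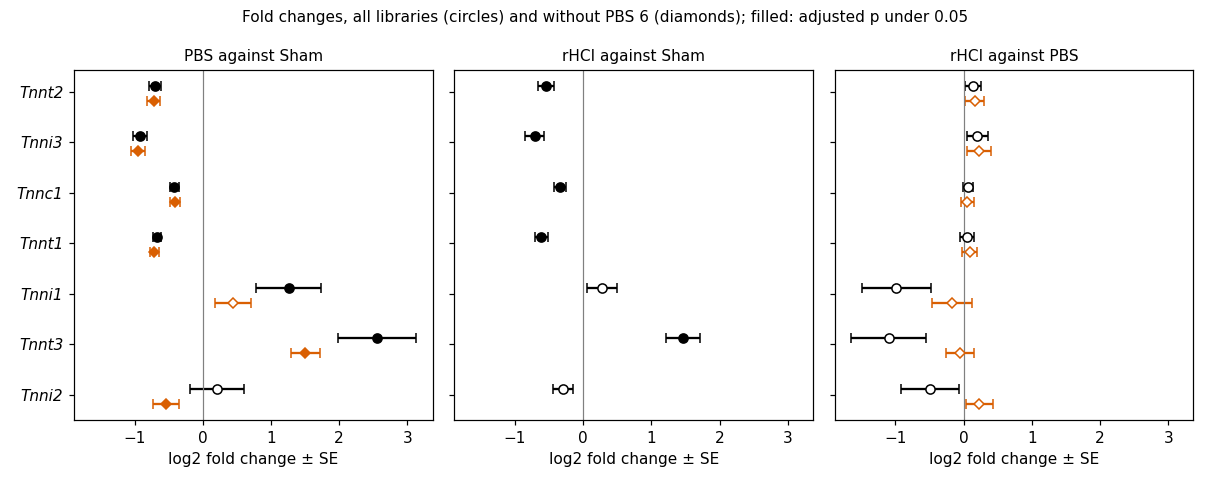
Log2 fold change ± SE (x axis) of the 7 members tested with edgeR, for PBS against Sham, rHCI against Sham and rHCI against PBS, from all libraries (circles) and without PBS 6 (diamonds); filled symbols have an adjusted p under 0.05. Tnnt2, Tnni3, Tnnc1 and Tnnt1 keep their values without PBS 6, while Tnni1 in PBS against Sham moves from 1.26 to 0.44 and Tnni2 from 0.20 to -0.53.

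The hydrogel and PBS groups did not differ in any member beyond the spread between libraries. In rHCI against PBS the log2 differences were 0.14 for Tnnt2 (SE 0.12), 0.20 for Tnni3 (SE 0.15), 0.06 for Tnnc1 (SE 0.08) and 0.05 for Tnnt1 (SE 0.10), with edgeR adjusted p between 0.871 and 0.916 over the 7 members tested. The larger differences of Tnni1 (-0.99, SE 0.50), Tnnt3 (-1.10, SE 0.55) and Tnni2 (-0.50, SE 0.43) rested on PBS 6. Without it they were -0.17, -0.05 and 0.23 (SE 0.29, 0.20 and 0.20). A p that misses the threshold does not show that the 2 injections act alike.

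PBS 6 stood apart in skeletal muscle genes. It was the highest of the 15 libraries for 15 of 20 skeletal muscle markers, whose summed level was 88.6 to 112 CPM in rHCI, 96.0 to 167 CPM in PBS, with the maximum in PBS 6, and 82.3 to 113 CPM in Sham. The fast myosin gene Myh4 had 158 counts in PBS 6 and 0 in all other libraries. The fast myosin gene Myh1 was at 9.36 CPM in PBS 6 and at most 0.221 CPM elsewhere. Myh8, the perinatal myosin gene, was at 14.3 CPM in PBS 6 and at most 0.316 CPM elsewhere. Myog, a regulator of muscle differentiation, was at 1.74 CPM and at most 0.0472 CPM elsewhere. Tnni1, Tnnt3, Tnni2 and Tnnc2 were all highest in the same library, and the part of skeletal muscle in their PBS means was not tested. PBS 6 was the only library of its run, so library and run cannot be told apart.

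**Figure D4:**
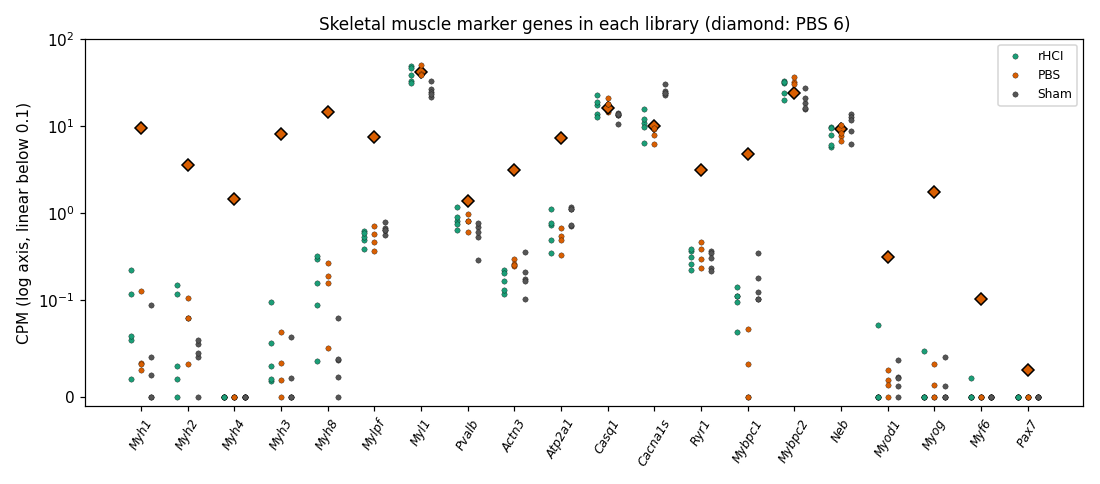
CPM of 20 skeletal muscle marker genes (y axis logarithmic above 0.1 and linear below) in each library of the rHCI, PBS and Sham groups, 5 libraries each. The PBS 6 library (diamond) lies above every other library for 15 of the 20 genes, such as Myh1 at 9.36 CPM, and below at least 1 other library for Myl1, Casq1, Cacna1s, Mybpc2 and Neb.

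Within each subunit the cardiac gene made up nearly all transcripts in every group. On a scale of CPM per kilobase of exon, Tnnt2 held 99.2% of the troponin T sum in rHCI, 99.0% in PBS and 99.2% in Sham, as means of 5 libraries. Tnnt1 held 0.712% in rHCI, 0.756% in PBS and 0.744% in Sham. Tnnt3 held 0.111% in rHCI, 0.233% in PBS and 0.0259% in Sham. Without PBS 6, which was at 0.675%, the PBS mean of Tnnt3 was 0.122%. The lowest library for Tnni3 had 99.74% of the troponin I sum and the lowest for Tnnc1 had 99.67% of the troponin C sum, both in PBS 6. In PBS the order of Tnni3 and Tnnc1 per kilobase turned on the length used: the means of Tnni3, Tnnc1 and Tnnt2 were 1057, 1433 and 638 CPM per kilobase with the union of exons, and 2391, 2068 and 1485 with the longest transcript. In Sham they were 1998, 1910 and 1033 with the union and 4519, 2758 and 2404 with the longest transcript, in the same order both times.

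Ratios within a library need no scaling between libraries. Each ratio is the log2 of (count + 0.5) over (count + 0.5), compared by a two-sided exact permutation test over all arrangements of the libraries with Benjamini-Hochberg adjustment over 21 tests. The smallest p of this design is 0.00794. In PBS against Sham 4 of 7 ratios passed, in rHCI against Sham 2 of 7, and in rHCI against PBS 0 of 7. How many pairs of other genes would pass was not tested, so these counts show nothing particular to troponins. Among single genes, 58.7% of those tested had no overlap in CPM in PBS against Sham, and 49.4% in rHCI against Sham.

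The cardiac subunits did not fall in step. The Tnnc1/Tnni3 ratio was -0.65, -0.38, -0.65, -0.77 and -0.86 on the log2 scale in rHCI 1, 3, 7, 11 and 13. It was -0.46, -0.70, -0.62, -0.26 and -0.65 in PBS 2, 6, 9, 12 and 14, and -1.01, -1.14, -1.03, -0.99 and -1.09 in Sham 16 to 20. Every infarcted library was above every Sham library. The difference was 0.52 in PBS against Sham and 0.39 in rHCI against Sham (exact permutation p = 0.00794 and adjusted p = 0.0278 for both, higher in 5 of 5 libraries). With 1 library left out at a time, the call was kept in 10 of 10 cases in PBS against Sham. In rHCI against Sham it was kept in 5 of 10. The Tnnt2/Tnni3 ratio was higher by 0.23 in PBS against Sham (exact permutation adjusted p = 0.0278) and by 0.18 in rHCI against Sham, which did not pass (exact permutation p = 0.0238, adjusted p = 0.0625).

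The slow to cardiac troponin T ratio passed in no comparison. Tnnt1/Tnnt2 was -8.94 ± 0.09 in rHCI, -8.85 ± 0.08 in PBS and -8.87 ± 0.06 in Sham on the log2 scale (SD, n = 5 each). The differences were 0.02 in PBS against Sham, -0.06 in rHCI against Sham and -0.09 in rHCI against PBS (exact permutation p = 0.611, 0.238 and 0.127). By contrast Tnnt3/Tnnt2 was higher by 2.76 in PBS and by 2.02 in rHCI than in Sham (exact permutation adjusted p = 0.0278 for both), and by 2.26 in PBS without PBS 6.

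The slow to cardiac troponin I ratio was higher in PBS than in Sham. Tnni1/Tnni3 was -11.66, -10.93, -12.07, -11.85 and -12.85 on the log2 scale in rHCI 1, 3, 7, 11 and 13. It was -11.04, -9.47, -12.04, -10.71 and -12.30 in PBS 2, 6, 9, 12 and 14, and -12.90, -12.65, -12.86, -13.34 and -12.65 in Sham 16 to 20. All PBS libraries were above all Sham libraries, while rHCI 13 lay within the Sham range. The difference was 1.77 in PBS against Sham (exact permutation adjusted p = 0.0278), and 1.36 without PBS 6. With 1 library left out at a time, this call was kept in 5 of 10 cases. Without PBS 6, Tnni3 itself was at -0.95 in PBS against Sham and Tnni1 at 0.44, which was not called. The difference in rHCI against Sham was 1.01, which did not pass (exact permutation p = 0.0238, adjusted p = 0.0625). Tnni2/Tnni3 and Tnnc2/Tnnc1 passed in no comparison.

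**Figure D5:**
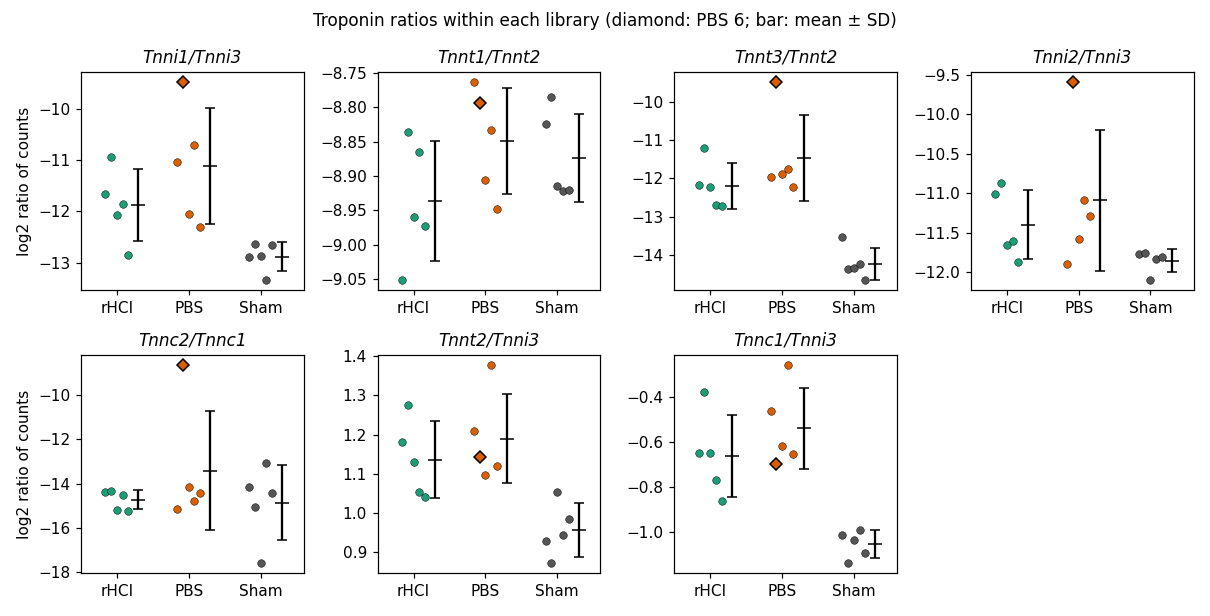
Log2 ratio of counts (y axes) for 7 pairs of troponin genes in each library of the rHCI, PBS and Sham groups, with the mean ± SD of 5 libraries beside the points. Tnnc1/Tnni3 is above Sham in every infarcted library, Tnnt1/Tnnt2 overlaps in all groups, and the PBS 6 library (diamond) is the highest for the ratios with Tnni1, Tnnt3, Tnni2 or Tnnc2 on top.

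Set against other heart muscle genes, the cardiac troponins stood at different places. All 12 genes of the cardiomyocyte list fell in both infarcted groups with edgeR. Of all genes tested, 34.9% fell in PBS and 29.7% in rHCI against Sham. The list's median log2 fold change was -0.74 in PBS and -0.56 in rHCI against Sham, beside -0.01 and 0.00 over all genes tested. With scaling by library totals 11 fell in PBS and 10 in rHCI, with medians of -0.47 and -0.34. On that scale 2610 of all 16207 genes fell in PBS and 2128 of 16076 in rHCI, with medians of 0.27 and 0.22. The listed genes themselves then ran from -0.68 (Hrc) to -0.049 (Mybpc3) in PBS against Sham. In rHCI against Sham they ran from -0.54 (Pln) to -0.043 (Mybpc3). Tnnc1, Tnnt2 and Tnni3 lay inside these ranges, at -0.14, -0.42 and -0.65 in PBS and -0.13, -0.33 and -0.50 in rHCI. How many other heart muscle genes would pass the test below was not tested. Each member's log2 CPM was compared with the mean log2 CPM of the 12 listed genes in the same library. Exact permutation tests were adjusted over 24 comparisons. Tnnt2 differed from this index by 0.04 in PBS and 0.01 in rHCI against Sham (exact permutation p = 0.341 and 0.706). Tnni3 was lower relative to it by 0.20 in PBS against Sham (exact permutation adjusted p = 0.0317), and by 0.17 in rHCI against Sham without passing (adjusted p = 0.0952 in the exact permutation test). Tnnc1 was higher relative to it by 0.32 in PBS and 0.23 in rHCI against Sham (exact permutation adjusted p = 0.0317 for both, higher in 5 of 5 libraries).

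The index depends on its genes. Against a second list of 7 sarcomere genes, Tnnt2 was lower by 0.16 in PBS and 0.13 in rHCI against Sham. This reverses its direction, and both values passed (exact permutation adjusted p = 0.0238 for both). Tnni3 was then at -0.39 in PBS and -0.31 in rHCI against Sham (exact permutation adjusted p = 0.0238 for both). Tnnc1 was at 0.12 and 0.083 and no longer passed (exact permutation adjusted p = 0.121 and 0.159). Tnnt1 was at -0.13 in PBS and -0.19 in rHCI against Sham, and both passed (exact permutation adjusted p = 0.0238 for both). With the main index Tnnt1 was at 0.06 and -0.05 and did not pass. Tnni1 was at 1.38 in PBS against Sham and no longer passed (exact permutation adjusted p = 0.0635). Relative to the main index, Tnnt3 was higher by 2.80 in PBS and 2.04 in rHCI against Sham, and Tnni1 by 1.57 in PBS (exact permutation adjusted p = 0.0317 for each). With 1 library left out at a time, the Tnni1 call was kept in 5 of 10 cases. In rHCI against PBS no member passed.

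Whether the troponin I ratio followed the myosin isoform ratio was asked in the 10 infarcted libraries. Myh7, the slow and fetal heavy chain, had 88.2 ± 36.0 counts per 1000 Myh6 counts in rHCI, 98.5 ± 14.4 in PBS and 15.7 ± 7.59 in Sham. Tnni1/Tnni3 had a Pearson r of 0.42 and a Spearman rho of 0.38 with Myh7/Myh6 (permutation p = 0.223 and 0.280, adjusted p = 0.445 and 0.559 over 2 relations). Without rHCI 11 and rHCI 13, the libraries farthest from the median, r was -0.0068. Tnnt1/Tnnt2 had an r of 0.14 and a rho of 0.09 (permutation p = 0.686 and 0.813), and 0.01 for r without the same libraries. Neither relation passed.

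Among themselves, Tnnt2, Tnni3, Tnnc1 and Tnnt1 varied together, and so did Tnni1, Tnnt3, Tnni2 and Tnnc2, which were all highest in PBS 6. Over the 15 libraries, deviations from group means of log2 CPM correlated at r = 0.94 between Tnnt2 and Tnni3, 0.90 between Tnnt2 and Tnnc1 and 0.89 between Tnnt2 and Tnnt1. The genes most like Tnnt2 by this measure were Chchd3 (0.985), Dap3 (0.985) and Prdx2 (0.980). For Tnni3 they were Mrps31, Eci1 and Acat1 (0.990, 0.990 and 0.989), for Tnnc1 Mrpl17, Commd1 and Paics (0.951, 0.941 and 0.924) and for Tnnt1 Neurl2, Rnf167 and Gstz1 (0.942, 0.941 and 0.936). Tnni2 and Tnnc2 correlated at 0.88, and the best match of Tnni2, Cops7b, was at 0.785 with PBS 6 and 0.374 without. The best matches of Tnni1 (Tnn), Tnnt3 (Myct1) and Tnnc2 (Slc35b1) were at 0.734, 0.760 and 0.810 with PBS 6. Without it they were at 0.630, 0.595 and 0.771. Correlations between members were not computed without PBS 6. All points share the libraries' scaling and tissue makeup, and these values are descriptions.

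The thin filament partners of troponin moved in both directions. Of 12 genes tested, 4 rose and 5 fell in PBS against Sham, with a median of -0.32, and 4 rose and 6 fell in rHCI against Sham, with a median of -0.33. Over all genes tested 36.5% rose and 34.9% fell in PBS against Sham, and 34.1% rose and 29.7% fell in rHCI against Sham, so such a split is not particular to these genes. Actc1, cardiac actin, was at -0.18 in PBS and -0.08 in rHCI against Sham and was not called (edgeR adjusted p = 0.155 and 0.561). Acta1, skeletal actin, which the fetal and stressed heart also expresses, rose by 1.17 in PBS and 0.85 in rHCI against Sham (edgeR adjusted p = 0.000598 and 0.00556). The tropomyosins Tpm3 and Tpm4 rose by 1.03 and 0.94 in PBS against Sham, and Tmod4, which caps the pointed end of the thin filament, fell by 0.96. With scaling by library totals Actc1 was at 0.093 and 0.14, again not called. The list then had 4 higher and 5 lower in each comparison, with medians of -0.039 in PBS and -0.11 in rHCI against Sham. All genes on that scale had 8938 higher and 2610 lower of 16207 in PBS, with a median of 0.27. In rHCI against Sham they had 8011 and 2128 of 16076, with a median of 0.22. Nothing in this list was called in rHCI against PBS.

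Of 13 thick filament genes, 4 rose and 9 fell in both infarcted groups against Sham, with medians of -0.66 in PBS and -0.53 in rHCI, beside 71.4% and 63.9% called over all genes. Myh6, the adult heavy chain, fell by 1.01 in PBS and 0.76 in rHCI against Sham (edgeR adjusted p = 1.18e-05 and 0.000885). The 4 that rose were Myh7 (1.61 in PBS and 1.63 in rHCI), the atrial light chain genes Myl4 (2.05 and 2.75) and Myl7 (1.92 and 2.72), and Mybphl (2.66 and 3.55). Atrial and conduction markers summed to 262 to 656 CPM in rHCI, with the maximum in rHCI 1. They summed to 309 to 427 CPM in PBS and 160 to 188 CPM in Sham. rHCI 1 was the highest library for 4 of these 14 markers (Myl7, Myl4, Sln and Stard10) and not for the others. Without rHCI 1, Myl4, Myl7 and Mybphl were at 2.13, 2.08 and 2.71 in rHCI against Sham (edgeR adjusted p = 0.00076, 0.00494 and 0.000978). Under library-total scaling 4 rose and 8 fell in each comparison, with medians of -0.39 in PBS and -0.32 in rHCI against Sham. All genes then had 8938 higher and 2610 lower of 16207 in PBS, with a median of 0.27. In rHCI against Sham they had 8011 and 2128 of 16076, with a median of 0.22. The part of atrial tissue in the 4 rises of this list was not tested.

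Genes whose products act on troponin were counted in the same way. Of 24 kinases, phosphatases and proteases, 8 rose and 13 fell in PBS against Sham (median -0.15), and 8 rose and 10 fell in rHCI against Sham (median -0.11). Of all genes, 36.5% rose and 34.9% fell in PBS, and 34.1% rose and 29.7% fell in rHCI against Sham. Mmp2, a protease that can cut troponin I, rose by 2.56 in PBS and 2.32 in rHCI against Sham, and the kinase genes Pak1 (2.17 and 1.97) and Prkcd (1.37 and 1.21) rose as well. Tnni3k, a heart kinase that binds troponin I, fell by 0.71 and 0.56. Under library-total scaling the split turned to 11 higher and 7 lower in PBS (median 0.13) and 10 and 7 in rHCI (median 0.12). These 4 genes kept their directions. On that scale 8938 of all 16207 genes were higher and 2610 lower in PBS against Sham (median 0.27). In rHCI against Sham 8011 of 16076 were higher and 2128 lower (median 0.22). Fibroblast markers rose in 10 of 10 genes in both infarcted groups, and Mmp2 is expressed by fibroblasts too. The part of cell makeup in these changes was not tested.

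Of 10 regulators of Tnnt2 splicing, 1 rose and 7 fell in both infarcted groups against Sham, with medians of -0.31 in PBS and -0.25 in rHCI, while of all genes 36.5% rose and 34.9% fell in PBS and 34.1% and 29.7% in rHCI. Rbfox1 fell by 1.14 in PBS and 0.89 in rHCI, Rbm24 by 0.71 and 0.59, and Rbm20 by 0.64 and 0.51, while Ptbp1, a repressor of muscle exons, rose by 0.85 and 0.80. With scaling by library totals 3 rose and 4 fell in PBS and 3 rose and 3 fell in rHCI. The medians were -0.037 and -0.029, beside 0.27 and 0.22 over all genes on that scale. The 4 named genes kept their directions and calls. The gene counts cannot show which Tnnt2 exons were used. Of 22 muscle transcription factor genes tested, 8 rose and 11 fell in PBS against Sham (median -0.29), and 6 rose and 11 fell in rHCI against Sham (median -0.29), again beside 71.4% and 63.9% of all genes called. The cardiac regulator genes Hand2 and Hopx fell, Hand2 by 1.25 in PBS and 1.22 in rHCI and Hopx by 0.87 and 0.69. Nfatc4, of a family activated by calcineurin, rose by 2.25 in PBS and 2.03 in rHCI, and Tead2, of the family that binds M-CAT motifs, rose by 1.05 and 0.88. Scaled by library totals, the transcription factors had 9 higher and 11 lower in PBS and 9 and 9 in rHCI. Their medians were -0.020 and -0.065. The TEAD genes split on that scale: in PBS against Sham Tead2 and Tead3 were higher, by 1.33 and 0.43. Tead1 was lower there by 0.19 (edgeR adjusted p = 0.0169), and Tead4 was not called (0.15, edgeR adjusted p = 0.273). In rHCI against Sham Tead2 and Tead3 were higher by 1.11 and 0.29, while Tead1 (-0.15) and Tead4 (0.015) were not called. Over all genes this scaling gave 8938 higher and 2610 lower of 16207 in PBS, with a median of 0.27. In rHCI against Sham it gave 8011 and 2128 of 16076, with a median of 0.22. None of the splicing regulator or transcription factor genes was called in rHCI against PBS with edgeR.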

How the data were processed

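Left ventricle mRNA was sequenced in 15 stranded libraries, and the series' design text gives 5 biological replicates per group. The authors deposited raw counts as 1 table, whose rows carry an identifier and a symbol, and every value column matched a sample. Per the submitters' processing notes, Trimmomatic, STAR, Cufflinks, edgeR and the builds GRCm38 and mm10 were used. What counted the reads, and with which strand setting, is not given in the sources used here, so counts of overlapping genes are uncertain.

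Groups came from the sample titles. Among the 30 pairs of replicates, the chi-square of their counts was at least 10.7 per gene (50 or more counts), so each library was counted once. Counting error falls with depth, which was 32978702 to 103356830 counts per library.

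For each comparison its 10 libraries were fitted with edgeR 4.0.16 (R 4.3.3), with TMM, filterByExpr and glmQLFTest, two-sided, adjusted over all genes tested, and a threshold of 0.05. Ratios, the index and correlations were tested with scipy 1.17.1. Positions and exon lengths came from GENCODE M21, where 46488 of the 47069 identifiers matched. Scripts were tested on simulated data. Genes named beside the members were their neighbours, up to 4 per list with the largest called change at 5 CPM or more in PBS against Sham, Myh6, Myh7, Actc1, Acta1, and the 3 most alike per member. Single skeletal markers were chosen after their values were seen. Members and lists were chosen with earlier results of these data known.

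Alternatives were RLE factors, library totals, DESeq2 1.42.0, other filters, 1 fit of all libraries, run as a covariate or the shared run alone, another pseudocount, a second index, and each library left out. The correlations without PBS 6 and the gene lists without PBS 6 or rHCI 1 were added after seeing the data.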

Additional observations from a re-analysis of the deposited data

Results flagged for a closer look

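In 45 groups of 5 libraries, 1 library stood apart from the other 4 in 10 cases by Dixon's criterion, which chance meets in about 1 of 20 groups. Of these, 6 were values of PBS 6. Its CPM was 3.36 for Tnni1 (others 0.4998 to 1.04), 7.36 for Tnnt3 (1.15 to 1.31), 3.09 for Tnni2 (0.515 to 1.02) and 3.70 for Tnnc2 (0.0271 to 0.0703). Its log2 ratios were -9.48 for Tnnt3/Tnnt2 (others -12.23 to -11.75) and -8.63 for Tnnc2/Tnnc1 (-15.14 to -14.14). The same library was the highest of 15 for 15 of 20 skeletal muscle markers, whose part in these values was not tested.

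Tnnc1 was at 1632 CPM in PBS 14, above the other PBS libraries at 1424 to 1471 CPM. Tnnt3 was at 1.77 CPM in rHCI 3 (others 0.880 to 1.13) and at 0.663 CPM in Sham 16 (others 0.327 to 0.412). The Tnni2/Tnni3 log2 ratio was -12.10 in Sham 18 (others -11.83 to -11.76).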

How the results depend on the processing

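No paired analysis was possible because the groups share no replicate numbers. Under RLE factors, library totals, DESeq2, other filters, 1 joint fit and the fits by run, 157 of 164 single-member values kept direction and side of the threshold, as did 202 of 210 with a library left out. With run in the model or within the shared run, Tnni2 was at -0.53 on the log2 scale in PBS against Sham and at 0.14 and 0.15 in rHCI against PBS. PBS 6, alone in its run, does not bear on these. Leaving out a library gave Tnni2 -0.53 (without PBS 6) to 0.36 in PBS against Sham and -0.66 to 0.23 (without PBS 6) in rHCI against PBS, and Tnnt1 -0.019 (without rHCI 13) to 0.10 in rHCI against PBS. DESeq2 called 6 genes in rHCI against PBS, and leaving out a library gave 0 to 3 (3 without rHCI 13). Without PBS 6 in PBS against Sham, or rHCI 1 in rHCI against Sham, the counts of higher and lower genes in the lists of troponin partners and regulators each moved by at most 1. DESeq2 gave no adjusted p for Tnnt3 in comparisons with PBS, and these values count among the 157 by direction alone.

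Within the shared run, 0 ratios and 0 members relative to the index passed in either comparison with Sham. With 4 against 4 libraries, a test could pass only if most tests of its family reached the smallest p, so little can be read from this. Leaving out a library gave 1 to 4 ratios called in rHCI against Sham (4 without rHCI 13, 1 without any Sham library) and 2 to 4 members relative to the index (4 without rHCI 13). The sarcomere index gave 4 there. It put Tnnt2 at -0.16 in PBS and -0.13 in rHCI against Sham, both past the threshold, and at 0.029 in rHCI against PBS. It put Tnnt1 at -0.13 in PBS and -0.19 in rHCI against Sham, also past the threshold. Other small differences changed sign in single settings, and the cause was not tested. Tnnt1/Tnnt2 in PBS against Sham was -0.0016 within the shared run. With a library left out, Tnni2/Tnni3 in rHCI against PBS ran over -0.51 to 0.065 (without PBS 6), and Tnnc2/Tnnc1 in rHCI against Sham over -0.56 (without Sham 18) to 0.58. Relative to the index, Tnni2 in rHCI against PBS was 0.033 within the shared run and ran over -0.48 to 0.11 (without PBS 6). In the same way Tnnt2 in rHCI against Sham ran over -0.0027 (without rHCI 13) to 0.036, with -0.00089 without Sham 17, Tnni3 in rHCI against PBS over -0.0096 (without rHCI 13) to 0.073, and Tnnc2 in rHCI against Sham over -0.34 (without Sham 18) to 0.82. In the correlation added after seeing the data, without PBS 6, r of Tnni1/Tnni3 with Myh7/Myh6 was 0.57 (permutation p = 0.114). Tnni1, Tnnt3, Tnni2 and Tnnc2 had few counts outside PBS 6, which limits their precision.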
